A study of Mus musculus with 59 samples.

Results

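The 10 transcripts described here sit downstream of the ERK mitogen-activated protein kinase and were followed in muscles of melanoma-bearing mice. They were the feedback genes Dusp6, Dusp4, Spry1, Spry2, Spred1 and Etv5 and the immediate-early genes Fos, Egr1, Ier2 and Junb. All 10 were found by gene symbol among the 47643 genes of the table of TPM values, in which a transcript's level is scaled by its length and by the library total. The table holds 59 libraries of 8 groups, from female mice of the NCI Ath/nude strain, which lack a thymus, aged 4 months, and every mouse carried a melanoma grown from a human xenograft. The diaphragm was sampled with a cachectic melanoma and rFibcd1 (n = 10), with a cachectic melanoma and mock treatment (n = 10), with a non-cachectic melanoma and rFibcd1 (n = 10), and with a non-cachectic melanoma and mock treatment (n = 9). The study's own expression figure counts fewer cachectic diaphragms in both treatments than the table holds. Tibialis anterior and soleus muscles were sampled with the cachectic melanoma (n = 5 each) and with the non-cachectic melanoma (n = 5 each), and the labels give no injection for them. rFibcd1 is the recombinant form of a protein secreted by muscle, injected intraperitoneally every other day, and mock mice received carrier protein in saline. Each melanoma is 1 patient-derived line, so cachexia and the identity of the tumour cannot be told apart, and no mouse without a tumour is in the table. The study asked, in cultured myotubes, whether Fibcd1 acts through ERK. Its evidence included the phosphorylation of ERK soon after rFibcd1 was added and an ERK inhibitor, whereas these libraries hold transcript levels only. The comparison of rFibcd1 with mock treatment in the diaphragm is the place where that question touches these libraries, although the time between the last injection and collection is not given in the sources used here.

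Growth factors that bind receptor tyrosine kinases switch on RAS, RAF, MEK and finally ERK, which enters the nucleus and activates transcription factors. Fos, Egr1, Ier2 and Junb are immediate-early genes, switched on within minutes without new protein synthesis and soon shut off again. The feedback genes follow and dampen the signal. DUSP6 is a phosphatase that removes the activating phosphates of ERK in the cytosol, DUSP4 is a nuclear phosphatase of mitogen-activated protein kinases, Sprouty and Spred proteins (Spry1, Spry2, Spred1) restrain RAS and RAF, and ETV5 is a transcription factor of the ETS family often read as a marker of FGF and ERK activity. JUNB, a partner of FOS in the AP-1 complex, is also induced by interleukin-6 through STAT3, and immediate-early genes answer to many stresses besides growth factors. In muscle, Sprouty 1 is known for its part in the return of satellite cells to rest.

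The promoters of Junb, Fos and Dusp6 are shown because Junb was the member that differed most between the melanomas, Fos is its AP-1 partner, and Dusp6 is the most direct ERK feedback gene. The sequences are RefSeq promoters of build GRCm38.p6, on the transcribed strand, and end on the base before the GENCODE start of the gene. They lie at chr8:84978719-84978998 (minus strand, Junb), chr12:85473640-85473889 (plus strand, Fos) and chr10:99262981-99263230 (plus strand, Dusp6). Capitals mark a TATA box (TATAAA), the core of a cAMP-response element (TGACG), an ETS core (CGGAAG, or CTTCCG on the other strand) and a CCAAT box (CCAAT, or ATTGG on the other strand).
Junb: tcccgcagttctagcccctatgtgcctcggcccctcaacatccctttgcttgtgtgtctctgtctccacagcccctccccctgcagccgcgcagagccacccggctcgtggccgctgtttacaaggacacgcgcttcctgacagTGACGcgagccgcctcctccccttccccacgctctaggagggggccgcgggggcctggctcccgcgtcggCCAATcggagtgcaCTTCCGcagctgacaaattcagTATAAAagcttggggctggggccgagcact
Fos: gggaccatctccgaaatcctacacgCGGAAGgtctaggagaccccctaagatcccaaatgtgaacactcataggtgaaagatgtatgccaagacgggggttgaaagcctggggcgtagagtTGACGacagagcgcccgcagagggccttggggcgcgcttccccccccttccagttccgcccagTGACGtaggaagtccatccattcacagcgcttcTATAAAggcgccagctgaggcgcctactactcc
Dusp6: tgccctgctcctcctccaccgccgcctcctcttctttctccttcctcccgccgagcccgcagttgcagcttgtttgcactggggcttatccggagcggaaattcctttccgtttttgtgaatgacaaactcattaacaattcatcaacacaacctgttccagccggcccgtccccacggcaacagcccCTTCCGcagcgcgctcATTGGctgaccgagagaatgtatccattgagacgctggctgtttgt

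Among the 7 members with an entry in the promoter table (Dusp6, Spry1, Spry2, Spred1, Etv5, Fos and Junb), the TATA box was found in Fos and Junb, against 13.6% of 32851 promoters of the same length searched on both strands. The core TGACG, which is part of the full element TGACGTCA, was found in the same 2 genes against 20.8% of promoters. The ETS core was found in Dusp6, Fos, Junb and Spred1 against 16.9%, and the CCAAT box in Dusp6, Etv5, Junb and Spry1 against 37.4%. The letters TGACGTCA (1.79% of promoters), TGAGTCA (5.20%), TTCNNNGAA (8.30%), GCGTGGGCG (0.612%) and the CArG box (1.63%) were not in the windows of the 7 members. A match of letters describes the sequence and is not evidence of binding.

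The transcribed regions of the members the results turn on are, in GRCm38, Junb at chr8:84974484-84978718 (minus strand, 1 exon), Dusp6 at chr10:99263231-99267489 (plus strand, 3 exons), Spry1 at chr3:37639947-37644598 (plus strand, 3 exons), Spry2 at chr14:105891947-105896819 (minus strand, 2 exons) and Ier2 at chr8:84661331-84662852 (minus strand, 1 exon). The regions are whole gene spans, and the exon counts are those of the principal transcript, which for Junb is 1809 bases long. A second transcript of Junb overlaps the peroxiredoxin gene Prdx2 on the other strand, and how the counting treated strand is not given in the sources used here. An exon of Spry1 overlaps Gm42922 on the other strand, which is listed at 0 in every library.

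The 59 libraries held between 16436 and 19456 genes above 0, and their depth is unknown because only TPM is given. The summed level of 8 skeletal muscle markers lay between 36064 and 89490 TPM in single libraries of every muscle. Libraries also stood apart by the pseudogene Pcna-ps2, listed above 1 TPM (called high here) in 9 of 10 cachectic mock, 8 of 10 cachectic rFibcd1, 3 of 9 non-cachectic mock and 6 of 10 non-cachectic rFibcd1 diaphragms. In the limb muscles it was high in all 10 cachectic and in 0 of 10 non-cachectic libraries, so there this split and the melanoma cannot be told apart. Since the tissue was sequenced unsorted, a lower value cannot be told apart from fewer cells of a type that carries the transcript. The study describes the replicates as separate mice.

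In the non-cachectic mock diaphragm the members lay within about 1 order of magnitude of each other on the TPM scale. Junb (16.2 ± 4.19 TPM, SD, n = 9), Dusp6 (16.0 ± 1.82) and Spry2 (14.5 ± 1.93) had the highest mean levels, and their ranges overlapped. Spry1 (12.9 ± 1.86), Ier2 (10.9 ± 1.74), Fos (10.8 ± 5.40) and Etv5 (10.2 ± 1.05) followed, then Spred1 (6.24 ± 0.645) and Egr1 (5.15 ± 2.58). Dusp4 was lowest at 1.65 ± 0.391 TPM. The spread relative to the mean was widest for Fos and Egr1. Over all 8 groups the mean of Dusp6 ran from 8.69 TPM in cachectic tibialis anterior to 19.4 in either rFibcd1 diaphragm, that of Etv5 from 6.49 in non-cachectic tibialis anterior to 13.1 in cachectic soleus, and that of Spred1 from 2.98 in non-cachectic tibialis anterior to 8.96 in the cachectic rFibcd1 diaphragm. Junb had the widest range of group means, from 5.40 TPM in non-cachectic tibialis anterior to 56.7 in the cachectic mock diaphragm.

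**Figure D1:**
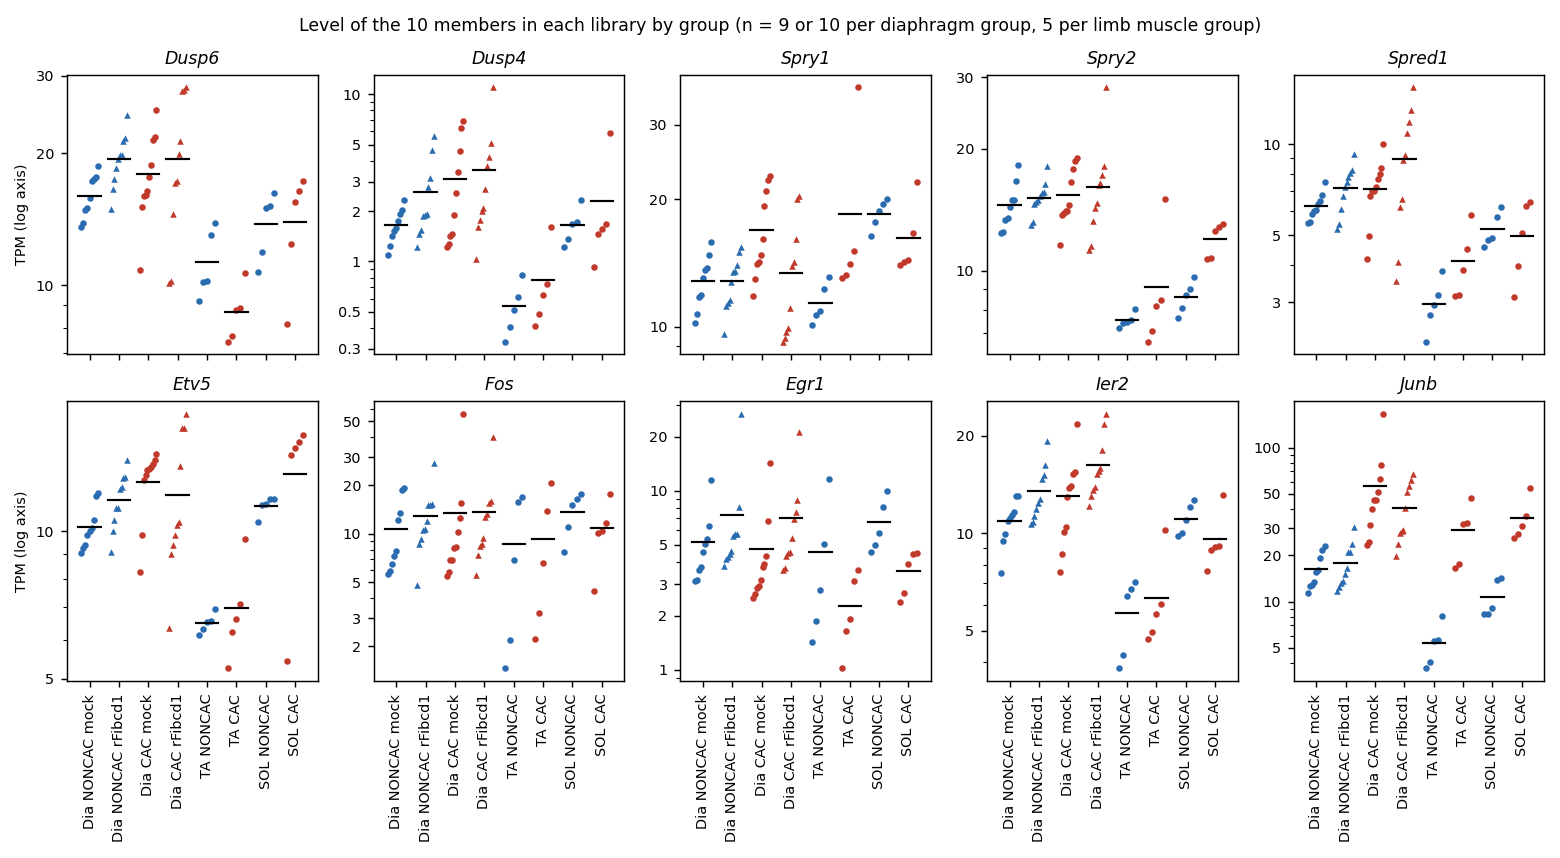
Level of the 10 members in each of the 59 libraries, by group. Each panel is 1 gene, the vertical axis is TPM on a log scale, points are libraries and the horizontal bars mark group means. Junb separates cachectic from non-cachectic libraries in the mock diaphragm, tibialis anterior and soleus, while the other 9 genes overlap between most groups.

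With rFibcd1 no member was called in the diaphragm, and the intervals of Egr1, Fos, Junb and Dusp4 were wide. None of the 10 members passed the test in cachectic mice (limma on log2(TPM + 1), Benjamini-Hochberg adjustment over 13426 genes, 2-sided), where 0.0447% of all genes tested were called. None passed in non-cachectic mice either, where 0.417% were called, nor as the mean over both melanomas (0.857% called), nor as a difference of the rFibcd1 effect between melanomas (0.0223% called). At an unadjusted p under 0.05 the members numbered 2 in cachectic mice (Spry1 and Ier2), 0 in non-cachectic mice, 1 for the mean (Ier2) and 0 for the difference between melanomas. Of all genes tested, 10.5%, 17.4%, 20.4% and 8.79% had such a p in these comparisons. Dunn's rank test, run for the first 2 comparisons, also called 0 members, beside 0 and 14 of all genes. The median log2 difference of the 10 members was 0.08 in cachectic and 0.21 in non-cachectic mice, beside medians of 0.03 and 0.15 over all genes tested.

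Dusp6 showed no called change. It ranged from 10.8 to 25.1 TPM (median 17.0) in cachectic mock diaphragms and from 10.1 to 28.3 TPM (median 18.5) with rFibcd1. In non-cachectic mice it ranged from 13.6 to 18.7 TPM (median 15.8) with mock treatment and from 14.9 to 24.4 TPM (median 19.6) with rFibcd1. The groups overlapped in both melanomas, although 6 of 10 non-cachectic rFibcd1 libraries lay above the highest mock library. The log2 difference was 0.06 (95% interval -0.23 to 0.36, adjusted p = 0.909 by limma) in cachectic mice and 0.26 (-0.05 to 0.56, adjusted p = 0.323) in non-cachectic mice. When the fit held only the 2 non-cachectic groups, that difference passed (adjusted p = 0.0334), as did 19.6% of all genes. Without 1 library of the main fit the cachectic difference ran from -0.01 to 0.15 and the non-cachectic one from 0.22 to 0.30.

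The other phosphatase and the RAS-RAF inhibitors gave intervals that included 0, except for Spry1 in cachectic mice. Spry1 ranged from 11.8 to 22.7 TPM (median 15.4) with mock treatment and from 9.24 to 20.3 TPM (median 12.5) with rFibcd1. There, 5 of 10 rFibcd1 libraries were below the lowest mock library. The log2 difference of Spry1 was -0.34 (95% interval -0.60 to -0.07), which did not pass adjustment (limma adjusted p = 0.362). In non-cachectic mice its difference was -0.01 (-0.28 to 0.27), and the difference between the melanomas, -0.33 (-0.71 to 0.05), was not called (adjusted p = 0.623). In cachectic mice the log2 differences were 0.10 (-0.42 to 0.63) for Dusp4, 0.04 (-0.18 to 0.25) for Spry2, 0.21 (-0.12 to 0.55) for Spred1 and -0.12 (-0.36 to 0.12) for Etv5. Without 1 library these ran from -0.07 to 0.23, from -0.05 to 0.09, from 0.12 to 0.33 and from -0.18 to -0.04. In non-cachectic mice they were 0.36 (-0.17 to 0.90) for Dusp4, 0.06 (-0.16 to 0.28) for Spry2, 0.16 (-0.18 to 0.50) for Spred1 and 0.16 (-0.08 to 0.41) for Etv5.

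Of the immediate-early genes, Ier2, a short-lived nuclear regulator of transcription, came closest to a call. It ranged from 7.59 to 21.8 TPM (median 13.4) in cachectic mock diaphragms and from 12.1 to 23.3 TPM (median 15.4) with rFibcd1. In non-cachectic mice it ranged from 7.54 to 13.05 TPM (median 11.1) and from 10.6 to 19.3 TPM (median 12.6) respectively. In both melanomas the groups overlapped, with 8 of 10 rFibcd1 libraries above the mock median. The log2 difference of Ier2 was 0.33 (95% interval 0.05 to 0.60, limma adjusted p = 0.394) in cachectic mice and 0.28 (-0.01 to 0.56, adjusted p = 0.290) in non-cachectic mice. Their mean was 0.30 (SE 0.10, 0.10 to 0.50, adjusted p = 0.103), and it passed (adjusted p = 0.0464) only without the cachectic rFibcd1 library that was highest for Ier2, at 23.3 TPM.

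Egr1, a zinc-finger transcription factor, and Fos had wide intervals that rested on single libraries. In cachectic diaphragms Egr1 ranged from 2.53 to 14.3 TPM (median 3.46) with mock treatment and from 3.6 to 21.2 TPM (median 5.02) with rFibcd1, a log2 difference of 0.48 (95% interval -0.09 to 1.06). All 10 rFibcd1 libraries were above the mock median of Egr1, and only 1 was above the highest mock library. Without the rFibcd1 library at 21.2 TPM the difference was 0.30, and without the mock library at 14.3 TPM it was 0.66. In non-cachectic mice the difference of Egr1 was 0.28 (-0.31 to 0.87), and 0.06 without the rFibcd1 library at 26.8 TPM.

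Fos ranged from 5.48 to 55.5 TPM (median 8.21) in cachectic mock diaphragms and from 5.54 to 39.9 TPM (median 11.1) with rFibcd1. The groups overlapped, and the highest mock library was over 3 times the next one at 15.6 TPM. The log2 difference of Fos was 0.18 (-0.46 to 0.83) in cachectic mice. Without that mock library it was 0.44, and without the rFibcd1 library at 39.9 TPM it was -0.0044, so single libraries decided this value. In non-cachectic mice the difference of Fos was 0.26 (-0.41 to 0.92).

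Junb gave a log2 difference of -0.34 (-0.86 to 0.17, limma adjusted p = 0.648) with rFibcd1 in cachectic mice and of 0.11 (-0.42 to 0.64, adjusted p = 0.777) in non-cachectic mice. The difference between these, -0.45 (-1.19 to 0.28), was not called (adjusted p = 0.716). Without the mock library at 165 TPM the cachectic difference was -0.15.

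**Figure D2:**
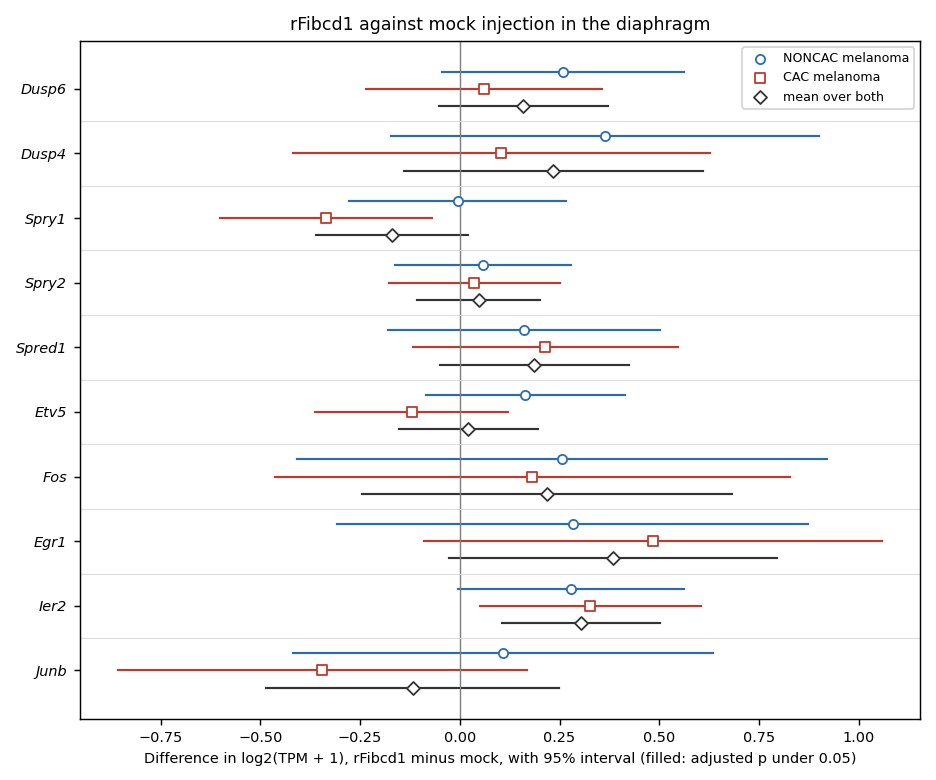
Log2 difference of rFibcd1 against mock treatment in the diaphragm for each member, in cachectic and in non-cachectic mice. Points are estimates from limma on log2(TPM + 1) and lines are 95% intervals. The intervals of Spry1 and Ier2 in cachectic mice leave out 0, and 0 of 10 members pass adjustment in either melanoma.

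Other genes of the pathway were read from 4 lists. With rFibcd1, 0 of 14 tested further ERK-target transcripts, 0 of 27 other immediate-early genes, 0 of 25 cascade components and 0 of 14 growth-factor receptors were called in cachectic mice, and the same counts held in non-cachectic mice. For the mean over both melanomas 1 of the 80 list genes was called, or 1.25% beside 0.857% of all genes. It was Dusp7, a cytosolic ERK phosphatase related to Dusp6. It had mean levels of 13.7 TPM with rFibcd1 against 21.6 with mock treatment in cachectic mice, and 13.7 against 19.8 in non-cachectic mice. The mean log2 difference of Dusp7 was -0.55 (SE 0.11, limma adjusted p = 0.00830), and without each library in turn it lay between -0.59 and -0.50. The genes of the circadian clock also differed, with 3 of 15 higher and 7 lower with rFibcd1 in non-cachectic mice, beside 0.417% of all genes in either direction, and 0 of 15 called in cachectic mice. Among those called were Dbp (-2.46), Arntl (2.25) and Ciart (-2.05). The clock index (mean log2 level of Arntl and Npas2 minus that of Dbp, Per2, Per3 and Ciart) averaged -3.29 ± 1.09 in non-cachectic mock and 0.50 ± 1.34 in non-cachectic rFibcd1 diaphragms, and -2.51 ± 1.40 and -1.59 ± 1.52 in the cachectic ones. Collection times are not given in the sources used here. The index is built in part from genes called in these comparisons and moved with rFibcd1 itself, so a fit with it as a term does not show which calls hold. In that fit 0 of 13426 genes were called in either melanoma or for the mean, and Dusp7 was at -0.40 (SE 0.15, limma adjusted p = 1.00).

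The comparison between melanomas was led by Junb. It rose in the muscles of mice with the cachectic melanoma in all 4 comparisons, while most other members did not pass. In the mock diaphragm Junb ranged from 23.4 to 165 TPM (median 45.5) in cachectic mice and from 11.4 to 23.0 TPM (median 15.7) in non-cachectic mice. The groups did not overlap, since the lowest cachectic library was above the highest non-cachectic one. The log2 difference was 1.54 (SE 0.26, 2.91-fold, limma adjusted p = 7.56e-05), and without the library at 165 TPM it was 1.34 (adjusted p = 0.000127).

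With rFibcd1, Junb ranged from 19.7 to 66.9 TPM (median 34.8) in cachectic diaphragms and from 11.7 to 30.4 TPM (median 15.9) in non-cachectic ones. These groups overlapped, with 5 of 10 cachectic libraries above the highest non-cachectic library and all 10 above the non-cachectic median. The log2 difference was 1.09 (SE 0.25, 2.13-fold, limma adjusted p = 0.00654), and it did not pass by Dunn's test (adjusted p = 0.0905) or among high libraries alone (1.06, limma adjusted p = 0.299). In both of these 0 genes of the whole table passed for this comparison.

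In tibialis anterior, Junb was listed at 16.6, 17.4, 31.8, 32.3 and 47.4 TPM with the cachectic melanoma and at 3.69, 4.05, 5.59, 5.63 and 8.04 TPM with the non-cachectic one. In soleus it was listed at 25.9, 27.3, 30.8, 36.2 and 54.6 TPM against 8.32, 8.34, 9.13, 13.8 and 14.1 TPM. In both limb muscles every cachectic library was above every non-cachectic library. The log2 difference was 2.17 (SE 0.28, 4.49-fold, limma adjusted p = 0.000283) in tibialis anterior and 1.60 (SE 0.21, 3.03-fold, limma adjusted p = 0.000567) in soleus. The difference of the effect on Junb was -0.63 (SE 0.42, adjusted p = 0.349) for diaphragm minus tibialis anterior, -0.06 (adjusted p = 0.970) for diaphragm minus soleus and 0.57 (adjusted p = 0.382) for tibialis anterior minus soleus, none of them called by limma. Prdx2, which overlaps Junb on the other strand, had log2 differences of 0.14, -0.00097 and 0.23 in mock diaphragm, tibialis anterior and soleus, and the last was called (adjusted p = 0.0486).

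Markers of neutrophils and of macrophages were in part higher where Junb was. The summed level of 5 macrophage markers had a median of 401 TPM (157 to 546) in cachectic and 166 TPM (91.3 to 223) in non-cachectic mock diaphragms, of 390 TPM (135 to 1144) against 183 TPM (108 to 485) in the rFibcd1 diaphragms, of 70.5 TPM (22.4 to 143) against 16.7 TPM (11.4 to 28.3) in tibialis anterior, and of 124 TPM (39.8 to 171) against 57.7 TPM (50.9 to 64.6) in soleus. The summed level of 3 neutrophil markers had a median of 28.2 TPM (9.29 to 53.3) against 5.31 (2.92 to 20.02) in the mock diaphragm, of 31.8 (9.87 to 328) against 8.99 (3.88 to 132) with overlap in the rFibcd1 diaphragm, of 9.82 (6.47 to 49.0) against 2.66 (0.953 to 3.65) in tibialis anterior and of 15.02 (7.13 to 29.97) against 3.70 (2.71 to 4.56) in soleus. The macrophage markers called higher numbered 2 of 5 in the mock diaphragm, 1 of 5 in the rFibcd1 diaphragm, 4 of 4 tested in tibialis anterior and 1 of 5 in soleus, where Cd68 alone was called (1.99) and the median over the list was 0.19. Both neutrophil markers tested were called higher in the mock diaphragm, tibialis anterior and soleus, and neither in the rFibcd1 diaphragm. Of the other cell types, 4 of 6 endothelial and 2 of 3 smooth muscle markers were higher in the mock diaphragm, 5 of 6 endothelial and 3 of 5 fibroblast markers were higher in tibialis anterior, and 3 of 5 fibroblast markers were lower in soleus. Of 8 skeletal muscle markers, 3 were higher and 1 lower in the mock diaphragm, 1 higher and 1 lower in the rFibcd1 diaphragm, 2 higher and 4 lower in tibialis anterior and 3 higher in soleus. Des was higher in each (1.05, 0.82, 1.66 and 1.66), and Mb was lower in both diaphragm comparisons (-0.58 and -0.74) and in tibialis anterior (-1.63). These counts stand beside 33.5%, 9.11%, 60.2% and 25.1% of all genes called in either direction. No macrophage or neutrophil marker was at 0 in every library of a group. The share of summed TPM from mitochondrial transcripts was lower with the cachectic melanoma, at 38.1% ± 3.18 against 47.5% ± 2.97 in the mock diaphragm, 37.6% ± 5.62 against 43.9% ± 2.95 with rFibcd1, 38.8% ± 8.12 against 48.5% ± 1.80 in tibialis anterior and 30.5% ± 3.92 against 41.1% ± 2.00 in soleus (SD). With median-ratio scaling, which set the median of all genes near 0, the log2 difference of Junb was 1.32, 1.01, 1.73 and 1.49 in these comparisons, each called by limma. The part of these cells, of the mitochondrial share, of the Pcna-ps2 split in the limb muscles and of the tumour's identity in the level of Junb was not tested.

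Of all genes tested, 33.5% were called between melanomas in the mock diaphragm (30.9% higher), 9.11% in the rFibcd1 diaphragm, 60.2% in tibialis anterior and 25.1% in soleus (17.5% higher, 7.54% lower). Against these shares, 2 of 10 members were called in the mock diaphragm (Junb and Spry1, both higher), 1 of 10 in the rFibcd1 diaphragm (Junb), 1 of 9 tested in tibialis anterior (Junb) and 3 of 10 in soleus (Junb and Spry2 higher, Egr1 lower). The median log2 difference of the members was 0.17, 0.03, 0.17 and -0.05 in these comparisons, beside medians of 0.20, 0.08, 0.41 and 0.09 over all genes tested. The median of the members was thus below that of all genes in each of the 4. The mock diaphragms of both melanomas also serve as the controls of the rFibcd1 comparisons above.

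Spry1 was the second member called in the mock diaphragm. It ranged from 11.8 to 22.7 TPM (median 15.4) in cachectic and from 10.2 to 15.9 TPM (median 13.1) in non-cachectic libraries, with 5 of 10 cachectic libraries above all non-cachectic ones. The log2 difference was 0.35 (SE 0.13, limma adjusted p = 0.0427). The call was close to its threshold and was lost with median-ratio scaling of the libraries (0.13, adjusted p = 0.624), by Dunn's test (adjusted p = 0.0670) and in 11 of 39 fits that left out 1 library (adjusted p up to 0.0899). By limma it was also lost without the filter on low values (adjusted p = 0.0681), with the clock index as a term (0.0523) and among high libraries (0.250). Etv5 gave 0.27 (limma adjusted p = 0.0847) with 8 of 10 cachectic libraries above all non-cachectic ones, and it passed without the mock library that was highest for Junb (adjusted p = 0.0353), without 1 rFibcd1 library that enters only the shared spread (adjusted p = 0.0434) by Dunn's test (adjusted p = 0.0392) and in the fit of the mock groups alone (adjusted p = 0.0172), where 50.1% of all genes were called. The remaining members gave log2 differences of 0.48 (Dusp4), 0.19 (Ier2), 0.14 (Spred1), 0.13 (Dusp6), 0.07 (Spry2), 0.07 (Fos) and -0.18 (Egr1), none of them called. With rFibcd1 the members other than Junb lay between -0.07 (Dusp6) and 0.24 (Ier2), with Dusp4 at 0.22, Spred1 at 0.19, Spry2 at 0.05, Spry1 and Egr1 at 0.02, Fos at -0.01 and Etv5 at -0.02.

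Soleus was the muscle where a feedback gene and an immediate-early gene were called in opposite directions. Spry2 was listed at 10.7, 10.7, 12.5, 12.8 and 13.1 TPM with the cachectic melanoma and at 7.65, 8.08, 8.73, 8.99 and 9.62 TPM with the non-cachectic one, without overlap. The log2 difference of Spry2 was 0.43 (SE 0.09, limma adjusted p = 0.00649). Egr1 was listed at 2.40, 2.67, 3.89, 4.41 and 4.50 TPM against 4.52, 4.96, 5.82, 8.13 and 9.93 TPM, groups that met without crossing. It fell by 0.73 on the log2 scale (SE 0.21, limma adjusted p = 0.0260), a call lost without the filter on low values (adjusted p = 0.0523) and in 4 fits that left out 1 library (adjusted p from 0.0553 to 0.0659).

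Single libraries decided further values in the limb muscles. Without the soleus library that was lowest for Etv5 (5.43 TPM), Etv5 was called higher in cachectic soleus (0.38, limma adjusted p = 0.00726), against 0.12 with all libraries. Without the cachectic soleus library that was highest for Dusp4 (5.88 TPM), Spry1 (-0.30, adjusted p = 0.0271) and Ier2 (-0.32, adjusted p = 0.0366) were called lower there, against -0.19 and -0.21 with all libraries. The other uncalled members in soleus were Dusp4 (0.16), Dusp6 (-0.01), Spred1 (-0.09) and Fos (-0.36). In tibialis anterior, Spry1 was listed at 13.1, 13.3, 14.1, 15.1 and 36.7 TPM in cachectic and at 10.1, 10.7, 10.9, 12.3 and 13.1 TPM in non-cachectic libraries. Its log2 difference was 0.54 (limma adjusted p = 0.0687), and 0.27 (adjusted p = 0.0143) without the library at 36.7 TPM.

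Dusp6 had the opposite sign in tibialis anterior. It was listed at 7.44, 7.67, 8.79, 8.88 and 10.7 TPM in cachectic and at 9.20, 10.2, 10.2, 13 and 13.8 TPM in non-cachectic libraries, with overlap. The log2 difference was -0.34 (SE 0.14, limma adjusted p = 0.0517), and it passed with median-ratio scaling (-0.77, adjusted p = 0.00143, 40.8% of all genes called) and without the cachectic library that was highest for Spry1 (adjusted p = 0.0104) or the non-cachectic one at 9.20 TPM. Dusp4 was too low in tibialis anterior to be tested, at a mean of 0.772 TPM in cachectic and 0.539 TPM in non-cachectic muscles. Spred1 gave 0.35 (adjusted p = 0.0743), Spry2 0.19, Fos 0.17, Ier2 0.12, Etv5 0.07 and Egr1 -0.55 (adjusted p = 0.232), none of them called. Spred1 passed without either of the cachectic libraries at 3.16 and 3.18 TPM. Without 1 library Spry2 ran from 0.0051 to 0.27, Fos from -0.22 to 0.50, Ier2 from -0.04 to 0.20, Etv5 from -0.04 to 0.15 and Egr1 from -0.78 to -0.19. With median-ratio scaling Spry2 (-0.25, adjusted p = 0.0485) and Etv5 (-0.35, adjusted p = 0.000903) were called with the opposite sign.

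**Figure D3:**
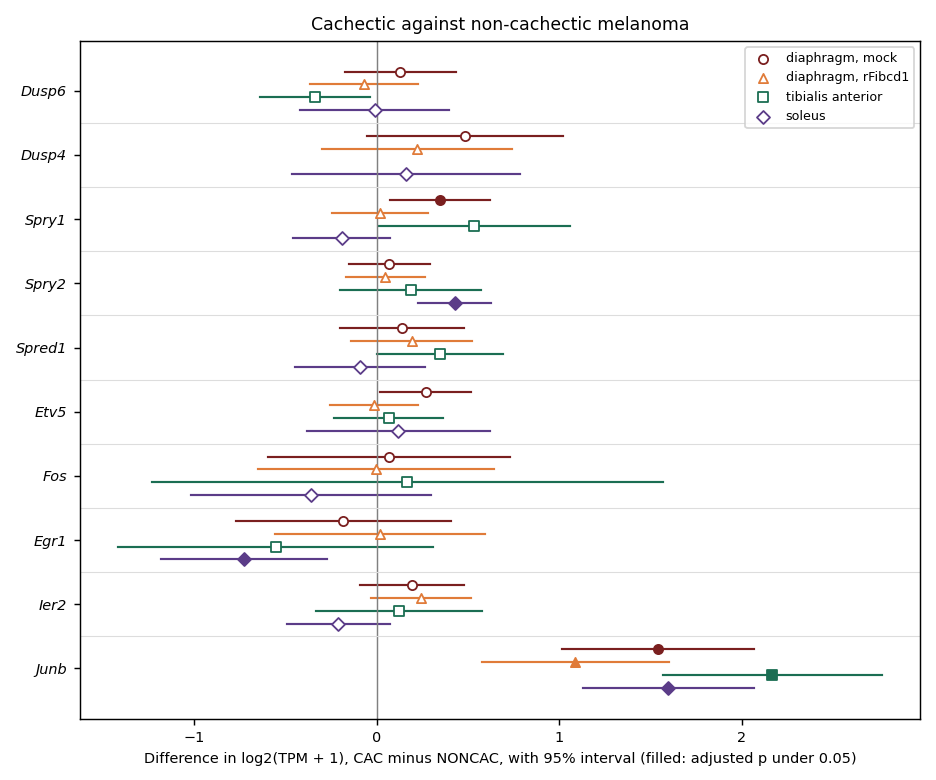
Log2 difference of the cachectic against the non-cachectic melanoma for each member in the mock diaphragm, rFibcd1 diaphragm, tibialis anterior and soleus. Points are limma estimates on log2(TPM + 1) and lines are 95% intervals. Junb lies between 1.09 and 2.17 in the 4 comparisons, whereas the other members lie between -0.73 and 0.54.

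The effect of the melanoma on Spry1 differed between the limb muscles, 0.73 higher in tibialis anterior than in soleus on the log2 scale (SE 0.27, limma adjusted p = 0.0483), where 20.4% of all genes tested were called. It was the 1 member of 10 called there, and the call was close to its threshold. It was lost without the library at 36.7 TPM (0.46), in 26 of 39 fits that left out 1 library in all (adjusted p up to 0.136), without the filter on low values (adjusted p = 0.0775) and with median-ratio scaling (0.37, adjusted p = 0.319). For diaphragm minus tibialis anterior and diaphragm minus soleus, 0 of 10 members were called by limma, beside 5.04% and 2.52% of all genes. Of the members, 1 and 2 had an unadjusted p under 0.05, beside 24.4% and 15.8% of all genes. The 10 members in these differences between muscles include Dusp4, which was too low within tibialis anterior to be tested there. Among the cell type markers, 3 of 5 of macrophages and 3 of 5 of fibroblasts were called in the direction of Spry1 for tibialis anterior minus soleus. Within tibialis anterior 4 of 5 macrophage markers passed the filter, and the part of these cells was not tested. With the column number as a replicate block, Spred1 (0.44, adjusted p = 0.0456) was also called for tibialis anterior minus soleus, beside 41.2% of all genes, and Dusp6 (0.49, adjusted p = 0.0406) for diaphragm minus tibialis anterior, beside 17.2%.

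Relatives of the members moved unevenly between the melanomas. In the mock diaphragm, where 30.9% of all genes were called higher, 3 of 14 tested further ERK-target transcripts were higher and 1 lower, led by the growth regulator Myc (1.47, limma adjusted p = 7.56e-05), the receptor inhibitor Errfi1 (0.90, adjusted p = 0.00957) and the cyclin gene Ccnd1 (-0.81, adjusted p = 0.0374). Of the other immediate-early genes, 10 of 27 were higher and 1 lower. Socs3, a feedback inhibitor of interleukin-6 and STAT3 signalling, had the largest difference, with 50.8 ± 26.1 TPM against 7.70 ± 2.01 (log2 difference 2.45, limma adjusted p = 1.49e-06), Arc fell by 1.38 and Fosl2 was higher (1.01). Of 25 cascade components 12 were higher, among them the ERK-activated kinase gene Mknk2 (0.85), the scaffold gene Ksr1 (0.55) and the MEK gene Map2k2 (0.42), and of 14 receptors 7 were higher, among them Igf1r (0.88), Flt1 (0.62) and Fgfr1 (0.45).

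In the limb muscles Myc and Socs3 were again higher with the cachectic melanoma. Socs3 averaged 43.2 TPM against 1.96 in tibialis anterior (log2 difference 3.78) and 25.99 against 3.20 in soleus (2.62), and Myc differed by 1.74 and 1.36. In tibialis anterior, where 60.2% of all genes were called in either direction, 3 of 9 tested further ERK-target transcripts were higher and 1 lower, 10 of 23 other immediate-early genes were higher and 1 lower, 17 of 25 cascade components were higher, and 10 of 13 receptors were higher and 1 lower. In soleus, beside 25.1% of all genes, the counts were 2 higher and 3 lower of 13, 7 higher and 1 lower of 26, 7 higher and 4 lower of 25, and 2 higher and 2 lower of 13. With rFibcd1 in the diaphragm, beside 9.11%, they were 2 higher of 14 (Ier3 1.06, Myc 0.98), 3 higher and 1 lower of 27, 0 of 25, and 1 lower of 14 (Kdr -0.51).

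Levels also differed between muscles of mice with the non-cachectic melanoma. Dusp4 lay below 1 TPM in every tibialis anterior library there (0.332 to 0.827 TPM) and passed the filter through the other muscles, so it is left out of the counts. It was at 1.098 to 2.31 TPM in the diaphragm and 1.22 to 2.33 TPM in soleus. The shares over all genes beside counts with tibialis anterior keep genes of this kind. They are of 13501 genes, against 11105 that passed the filter within that muscle. In the diaphragm, 6 of the other 9 members were higher than in tibialis anterior, beside 64% of all genes tested (72.5% in either direction). They were Junb (1.43 on the log2 scale), Spred1 (0.87), Ier2 (0.86), Spry2 (0.85), Etv5 (0.58) and Dusp6 (0.48), each passing by limma, while Fos (0.59), Egr1 (0.34) and Spry1 (0.15) did not. Without the tibialis anterior library at 11.6 TPM Egr1 was called (0.70, adjusted p = 0.0396), and Fos ran from 0.20 to 0.92 without 1 library. The median over all genes was 0.44, and with median-ratio scaling Dusp6 (-0.0076) and Etv5 (0.12, adjusted p = 0.421) lost their calls and Spry1 was lower in the diaphragm (-0.33, adjusted p = 0.0353), with 69.8% of all genes called. The 3 mesothelium markers summed to between 55.1 and 162 TPM in the diaphragm, at most 0.251 TPM in tibialis anterior and at most 0.887 TPM in soleus, so they passed the filter through the diaphragm and carry no test. Markers of fibroblasts (5 of 5, median log2 difference 1.89) and endothelium (6 of 6, 0.85) were also higher in the diaphragm. The medians of adipocyte and macrophage markers were 3.01 and 2.61. Only 2 of 3 adipocyte and 4 of 5 macrophage markers passed the filter within tibialis anterior, so a count of these 2 lists carries no test. The part of these cells was not tested.

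Between tibialis anterior and soleus, 5 of the 9 members were lower in tibialis anterior (Ier2 -0.89, Junb -0.88, Etv5 -0.71, Spred1 -0.66, Spry1 -0.65), beside 63.9% of all genes (69.5% in either direction). Dusp6 (-0.27) and Spry2 (-0.17) did not pass. The call of Junb was lost without the tibialis anterior library at 3.69 TPM and without either soleus library at 13.8 or 14.1 TPM (adjusted p up to 0.0566). Without the tibialis anterior library that was highest for Fos (17.0 TPM) and Egr1 (11.6 TPM) both were called (adjusted p = 0.0360 and 0.00674), and Fos also without the one at 15.8 TPM. With the replicate block 7 of the 9 were lower, the added members being Fos (-0.98, adjusted p = 0.0366) and Egr1 (-0.69, adjusted p = 0.0310), beside 76.1% of all genes, and with median-ratio scaling 1 member was called, beside 53.1% of all genes. It was Spry2, with the opposite sign (0.36, adjusted p = 0.00117). Markers of fibroblasts (5 of 5) and endothelium (6 of 6) were lower in tibialis anterior as well. Those of macrophages and adipocytes had median log2 differences of -1.42 and -3.42, and a count of them carries no test for the reason given above. The part of these cells was not tested.

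Between diaphragm and soleus, where the median over all genes was near 0 (-0.04), 2 of 10 members were called, beside 38.8% of all genes. Spry2 was higher in the diaphragm (14.5 against 8.61 TPM, log2 difference 0.69, limma adjusted p = 1.80e-05) and its relative Spry1 was lower (12.9 against 18.5 TPM, -0.50, adjusted p = 0.0164). The Sprouty genes thus ranked in opposite order in these muscles. Junb (0.55), Spred1 (0.22), Dusp6 (0.21), Dusp4 (-0.01), Ier2 (-0.03), Etv5 (-0.14), Egr1 (-0.36) and Fos (-0.39) were not called. With median-ratio scaling Spred1 was called as well (0.27, adjusted p = 0.0339), beside 46.9% of all genes. Markers of macrophages (4 of 5, median 1.38) and fibroblasts (4 of 5, 0.96) were higher in the diaphragm, and their part was not tested.

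Across the 39 diaphragm libraries, after the group means were removed, the feedback and immediate-early genes formed separate blocks. In some other settings these blocks stood less apart. These correlations are descriptions over libraries that share their normalization and the Pcna-ps2 split. All 6 pairs of immediate-early genes had a positive Pearson r (median 0.61, 0.42 to 0.69), and the median was 0.38 by Spearman's rho. Without the 3 diaphragm libraries that stood far above their groups for Fos, Egr1 or Spry2, the median r was 0.24 with 5 of 6 pairs positive, so much of this block rested on these libraries. Among the 15 pairs of feedback genes 10 were positive (median 0.43), with the highest values for Spred1 and Etv5 (0.88), Dusp6 and Spred1 (0.82), Dusp6 and Etv5 (0.74) and Spry2 and Spred1 (0.74). Without the same 3 libraries the median of the feedback pairs was 0.65. Spry1 was negative with each of the other 5 feedback genes (-0.12 to -0.35). The 24 pairs between the blocks had a median r of 0.09, and of 0.11 without the same 3 libraries.

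**Figure D4:**
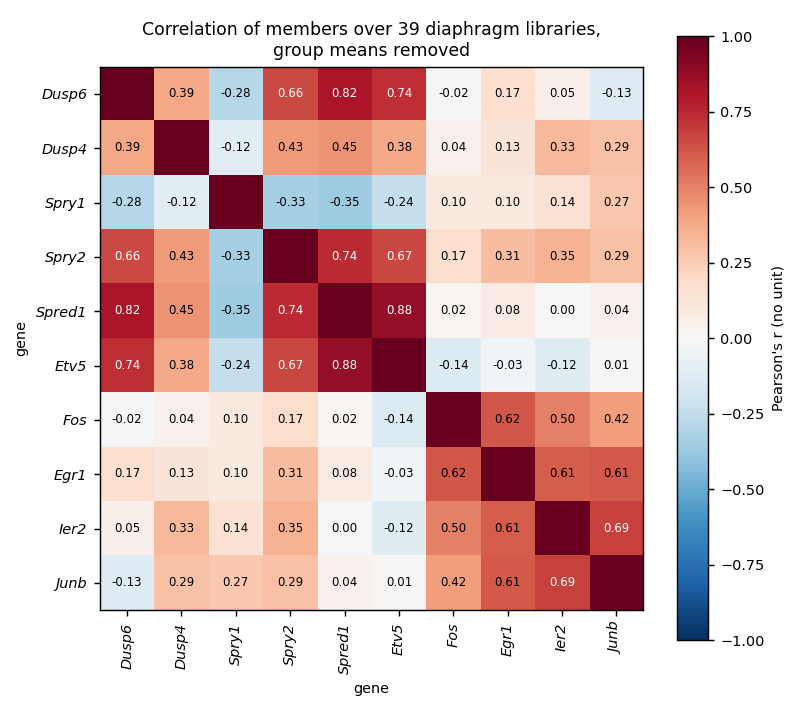
Pearson correlation of log2(TPM + 1) between the 10 members over the 39 diaphragm libraries after removal of group means. Colour gives r from -1 to 1. The feedback genes other than Spry1 form 1 positive block and the 4 immediate-early genes another, with a median of 0.09 between them.

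Part of the feedback block ran with the Pcna-ps2 split. Within groups, high libraries exceeded low ones by 0.58 (log2) for Dusp4, 0.50 for Spred1, 0.36 for Etv5, 0.32 for Spry2 and 0.25 for Dusp6, and by -0.24 for Spry1. With the split removed as well, the median r of the feedback pairs was 0.27, beside 0.08 between the blocks (up to 0.46). Among the 26 high libraries alone the feedback median was 0.17, beside 0.11 between the blocks (up to 0.56). The immediate-early genes differed less by this split (Junb 0.20, Ier2 -0.03, Fos -0.05, Egr1 -0.16), and their median r with the split removed was 0.62.

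The genes whose pattern over the 39 diaphragm libraries was most like each member were read by the same r. The Pcna-ps2 split and the libraries far above their groups were left in, so these values carry both limits. Junb was most like the growth-arrest gene Btg2 (0.82) and Socs3 (0.81), Fos was most like the stress-response factor Atf3 (0.76) and Nr4a2 (0.70), Egr1 like Rnd1 (0.75) and Gadd45b (0.65), and Ier2 like Rassf1 (0.77), Sertad1 (0.76) and, as for Egr1, Rnd1 (0.74). Among feedback genes, Spred1 was most like Dse (0.95) and Trps1 (0.94), Etv5 like Spred1 (0.88) and Zfp709 (0.88), Dusp6 like Brip1os (0.87) and Tax1bp3 (0.87), Dusp4 like Gm20730 (0.88) and Sh2b2 (0.85), Spry2 like Rab3il1 (0.88) and Clic4 (0.87), and Spry1 like A430105I19Rik (0.81) and C1qtnf9 (0.77). Etv5 was the member with a cascade component among its 3 most alike genes, the MEK gene Map2k1 (0.87).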

How the data were processed

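RNA of unsorted muscle tissue was sequenced from mRNA libraries. For the diaphragm it came from a part of the muscle portion, freed of tendons. The authors aligned the reads to the mouse genome (mm10) with CLC Genomics Workbench and deposited TPM values, 1 table of 59 libraries. The labels name a stranded mRNA kit and HiSeq, the study's methods another TruSeq kit and NovaSeq, and strand handling was not given in the sources used here. TPM keeps no depth, so no counting interval was computed. Groups came from the labels. log2(TPM + 1) was tested with limma 3.58.1 (R 4.3.3, eBayes with trend, 2-sided, Benjamini-Hochberg over all genes tested, call at 0.05), keeping genes at 1 TPM in as many samples as the smallest group. The fits held 39 diaphragm, 10 tibialis anterior and 10 soleus libraries and the 39 libraries without rFibcd1, and were checked on simulated data. The study's Dunn test, other pseudocounts, filters, scalings and covariates, and leaving out each library, were alternatives. The rule for named genes covered every member and, of each list, up to 3 of the most changed called genes, not all of which are printed. The members and lists were chosen with earlier results of these data known. Promoters came from RefSeq (GRCm38.p6), gene spans from GENCODE.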

Additional observations from a re-analysis of the deposited data

Results flagged for a closer look

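Of 80 gene and group pairs, 10 held a library far from the rest of its group by Dixon's test, a rule that flags about 1 group in 20 by chance. One cachectic rFibcd1 diaphragm was high for Spry2 (28.3 TPM, next 18.1), Fos (39.9, next 16.1) and Egr1 (21.2, next 8.92). A cachectic mock diaphragm was high for Fos (55.5 TPM, next 15.6) and was also the highest library for Junb (165 TPM). A non-cachectic rFibcd1 diaphragm was high for Egr1 (26.8 TPM, next 8.09). One cachectic tibialis anterior library was high for Spry1 (36.7 TPM, next 15.1) and Spry2 (15.05, next 8.46). In cachectic soleus 1 library was high for Dusp4 (5.88 TPM, next 1.67) and another low for Etv5 (5.43, next 14.3), and in non-cachectic soleus 1 was low for Etv5 (10.5, next 11.3).

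The effect of the melanoma on Spry1 differed between tibialis anterior and soleus, by 0.73 on the log2 scale (limma adjusted p = 0.0483), in the test of that difference itself.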

How the results depend on the processing

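Of 855 values of single members under alternatives other than leaving out a library, 818 kept their direction and their side of the threshold, 17 lost a call, 15 gained one and 5 reversed, and 67 changed sign (sign changes of values not called before or after are in the 818). All 5 reversals came with median-ratio scaling: Spry2 (-0.25, adjusted p = 0.0485) and Etv5 (-0.35, adjusted p = 0.000903) between melanomas in tibialis anterior, Spry1 (-0.33) and Dusp6 (-0.0076) between diaphragm and tibialis anterior, and Spry2 (0.36) between tibialis anterior and soleus, all by limma. The number of members called between melanomas in the mock diaphragm went from 2 to 1 without the filter, with median-ratio scaling, with the clock index as a term and among high libraries (18%, 16.3%, 28.8% and 5.69% of all genes called), and to 3 in the fit of only the groups compared (50.1% of all genes called). In the rFibcd1 diaphragm it went from 1 to 0 by Dunn's test and among high libraries, where 0 genes of the table passed. In tibialis anterior it went from 1 to 2 with a pseudocount of 0.1 or a mean of at least 5 TPM and to 4 with median-ratio scaling (61.3%, 62.5% and 40.8%). With rFibcd1 in non-cachectic mice it went from 0 to 1 in the fit of those 2 groups (19.6% of all genes). For the melanoma effect, median-ratio scaling gave 1 for diaphragm minus tibialis anterior, 1 for diaphragm minus soleus and 2 for tibialis anterior minus soleus, where no filter gave 0 (9.89%), and it gave 1 between tibialis anterior and soleus levels (5.07%, 3.52%, 10.5% and 53.1% of all genes). The cause was not tested. Leaving out each library gave 0 to 0 members with rFibcd1 in cachectic and in non-cachectic mice and for the difference between them, 0 to 1 for the mean, 1 to 3 between melanomas in the mock diaphragm, 1 to 1 in the rFibcd1 diaphragm, 1 to 3 in tibialis anterior, 2 to 4 in soleus, 0 to 1 for tibialis anterior minus soleus, 0 to 0 for the other muscle differences, 7 to 8 between diaphragm and tibialis anterior, 2 to 2 between diaphragm and soleus and 5 to 8 between tibialis anterior and soleus. The counts between tibialis anterior and another muscle here include Dusp4. Of 116 values of members not called, 35 changed sign without 1 library and 48 others moved by over 1.5 times. Column numbers recur across muscles, and libraries with the same number deviated together in 28 of 30 pairs (r over 0.1, median 0.30) against 31 of 210 pairs of different numbers, a hint from the data that a number marks a mouse. With this replicate block, 1 member was called for the melanoma effect of diaphragm minus tibialis anterior, 2 for tibialis anterior minus soleus and 8 between tibialis anterior and soleus levels (17.2%, 41.2% and 76.1% of all genes), and the other 3 counts across muscles did not change. No paired analysis was possible within a muscle because the groups share no column numbers. Dunn's test was run for comparisons of 2 diaphragm groups only. The correlations without 3 libraries, by rank and by Pcna-ps2 split were chosen after seeing the data. Depth is unknown, and the number of mice limits precision.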
